A study of Mus musculus with 6 samples.

Results

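The genes that build and load MHC class II molecules were examined in splenic monocytes of IL-4Rα+/+ and IL-4Rα-/- mice. They were taken by symbol, with no filter on their values, though earlier results of these data were known. They comprised *H2-Aa*, *H2-Ab1*, *H2-Eb1*, *Cd74*, *H2-DMa*, *H2-DMb1*, *H2-DMb2*, *H2-Oa*, *H2-Ob* and *Ciita*, which are 10 of the 55421 genes in the deposited tables. The study compared 3 IL-4Rα+/+ with 3 IL-4Rα-/- mice, with 1 library of polyadenylated RNA per mouse. All were C57BL/6 animals, no treatment is named for either genotype, and the study's methods give an age of 8 to 16 weeks for its animals without separating the genotypes. IL-4Rα-/- mice lack the receptor chain shared by the receptors for IL-4 and IL-13 in every tissue, so a difference between the genotypes need not arise in the monocyte itself. The monocytes were left untouched while antibodies and magnetic beads took the other cells out of the spleen suspension.

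MHC class II molecules are pairs of an α and a β chain that present peptides from the endosomes to CD4+ T cells. The chains assemble around the invariant chain, which is encoded by *Cd74* and guides them to the endosomes, where proteases trim it to a short peptide that fills the groove. H2-DM then exchanges this peptide for others, and H2-O restrains H2-DM, mainly in B cells. The co-activator CIITA switches on the whole set by joining factors that sit on the promoters of these genes. Dendritic cells, B cells and macrophages carry much class II, monocytes carry less, and IL-4 is known to raise class II on B cells.

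The reads counted on genes ranged from 26807281 to 29033297 per library. Levels are given as CPM, which are counts relative to the library total after TMM scaling, the step by which edgeR makes libraries comparable. At this depth 3 counts corresponded to 0.101 to 0.113 CPM, a floor that covers counting error only, and all 10 genes lay far above it. *Il4ra*, the targeted gene, stood at 137, 128 and 177 CPM in IL-4Rα+/+ replicates 1, 2 and 3 and at 27.9, 79.4 and 31.8 CPM in IL-4Rα-/- replicates 1, 2 and 3. It was thus lower in every IL-4Rα-/- library, although IL-4Rα-/- replicate 2 kept more reads than the other two. Even this gene, with a log2 fold change of -1.67 (SE 0.41), missed the adjusted p-value of 0.15 in edgeR's quasi-likelihood test with a Benjamini-Hochberg value of 0.618, and it passed in DESeq2 (adjusted p = 0.0109). The monocyte markers were high throughout, with *Csf1r*, the receptor for the growth factor M-CSF, at 2423 to 3092 CPM in IL-4Rα+/+ and 2225 to 2837 CPM in IL-4Rα-/- libraries. *Xist* and *Ddx3y* marked 1 library of each genotype, IL-4Rα+/+ replicate 1 and IL-4Rα-/- replicate 3, as female and the other 4 as male. Markers of other spleen cells were also present, and their values stand beside the results they move with.

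The 10 genes together took 0.695, 0.739 and 0.534% of the reads on genes in IL-4Rα+/+ replicates 1, 2 and 3 and 0.586, 0.470 and 0.535% in IL-4Rα-/- replicates 1, 2 and 3. The highest shares thus came from 2 of the IL-4Rα+/+ mice, while IL-4Rα+/+ replicate 3 lay below all but 1 of the IL-4Rα-/- libraries. That order changed with scaling. After TMM scaling the 10 genes summed to 5395 CPM in IL-4Rα+/+ replicate 3 and to 5763, 4775 and 5210 CPM in IL-4Rα-/- replicates 1, 2 and 3. All 10 passed the filter on low counts. In the comparison of the genotypes 8 were lower and 2 were higher in IL-4Rα-/- monocytes, where 48.5% of the 13849 genes tested were lower. The median log2 fold change was -0.34 over the 10 genes and 0.0084 over all genes tested, and 6 of the 10 reached -0.30 or lower, a size that 11.4% of all genes tested reached. None passed the threshold of the study, an adjusted p-value under 0.15, in the quasi-likelihood test of edgeR after Benjamini-Hochberg adjustment (0 of 10 genes, adjusted p = 0.618 to 0.990), and neither did any other gene (0%). Before adjustment 1 of the 10 had a p-value under 0.05, *Cd74*, which was lower, against 8.09% of all genes tested in either direction and 4.37% in the lower direction. DESeq2 called 0 of the 10 (adjusted p = 0.511 to 0.993) and 0.589% of the 13745 genes with an adjusted p-value. Before adjustment 3 of the 10 had DESeq2 p-values under 0.05, against 4.7% of the 25728 genes with a p-value. These 25728 include genes too low in counts for the edgeR filter, so the 4.7% is not a like background for the 10. In whole cell preparations such as these, fewer cells that express a gene and less of its RNA per cell cannot be told apart.

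**Figure D1:**
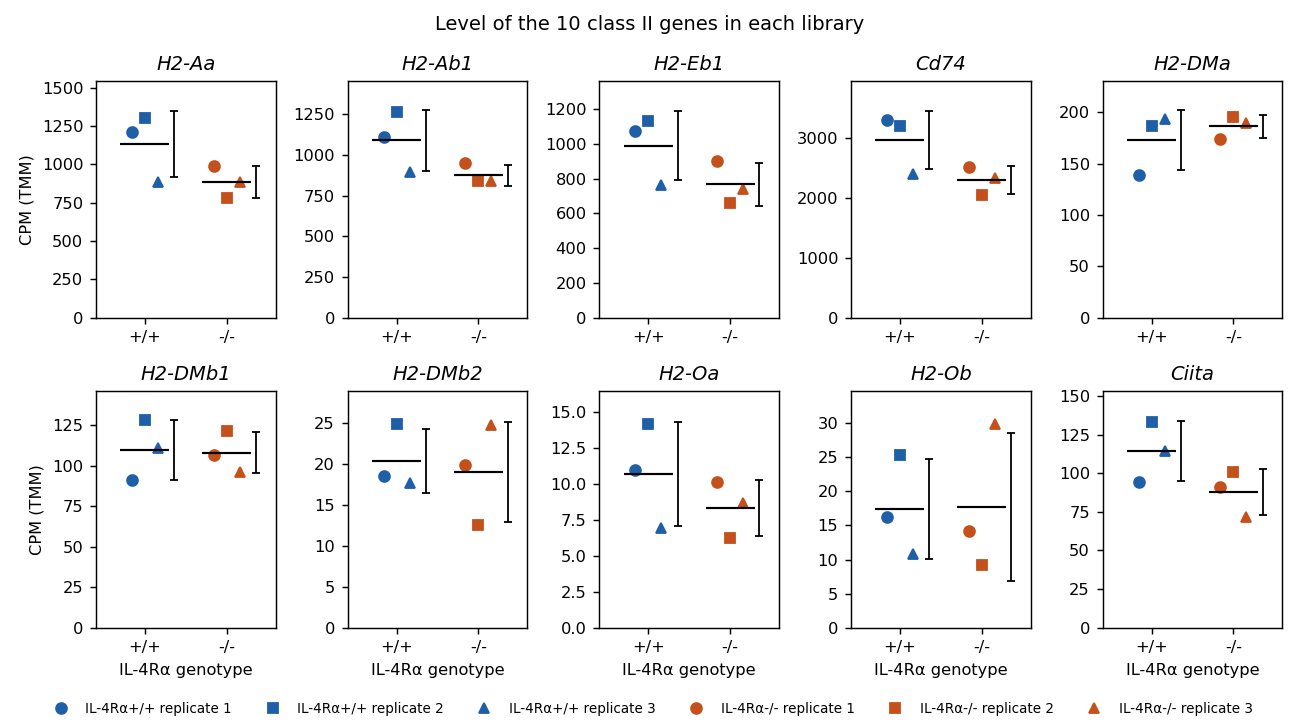
Level of each of the 10 genes (vertical axis, TMM-scaled CPM, starting at 0) in IL-4Rα+/+ (blue) and IL-4Rα-/- (orange) libraries, with replicates 1, 2 and 3 as circle, square and triangle, the mean as a line and the SD as a bar beside it. In *H2-Aa*, *H2-Ab1*, *H2-Eb1* and *Cd74* the triangle of IL-4Rα+/+ falls among the IL-4Rα-/- points, and no gene is free of overlap.

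The chains of the class II molecule A and the β chain of the molecule E, with the invariant chain, made up most of these reads. *H2-Aa*, the α chain of A, stood at 1211, 1299 and 886 CPM in IL-4Rα+/+ and 987, 783 and 885 CPM in IL-4Rα-/- replicates 1, 2 and 3. *H2-Ab1*, its β chain, stood at 1109, 1266 and 896 CPM against 951, 839 and 840 CPM. In both genes IL-4Rα+/+ replicates 1 and 2 were above all other libraries, and IL-4Rα+/+ replicate 3 lay within the IL-4Rα-/- range. The means of *H2-Aa* were 1132 ± 217 CPM (SD, n = 3) and 885 ± 102 CPM (SD, n = 3), and the log2 fold change was -0.36 (SE 0.16, 95% interval -0.74 to 0.03). For *H2-Ab1* they were 1090 ± 186 CPM (SD, n = 3) and 876 ± 64.3 CPM (SD, n = 3), with a log2 fold change of -0.32 (SE 0.14, 95% interval -0.64 to 0.01), which was -0.19 without IL-4Rα+/+ replicate 2. Both intervals included 0, so with n = 3 per genotype neither difference could be told from 0 in this test.

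*H2-Eb1*, the β chain of E, followed the same order at 1075, 1131 and 762 CPM in IL-4Rα+/+ and 900, 658 and 741 CPM in IL-4Rα-/- replicates 1, 2 and 3. Its log2 fold change was -0.37 (SE 0.18, 95% interval -0.80 to 0.07). *H2-Ea-ps*, the α chain gene of E, is a broken gene in C57BL/6 mice, and it had 1 read in IL-4Rα+/+ replicate 3 and 0 reads elsewhere. *Cd74*, the most abundant of the 10, stood at 3285, 3199 and 2398 CPM in IL-4Rα+/+ and 2509, 2050 and 2324 CPM in IL-4Rα-/- replicates 1, 2 and 3. Here too IL-4Rα+/+ replicates 1 and 2 were the highest, and IL-4Rα-/- replicates 2 and 3 were below every IL-4Rα+/+ library. The mean was 2961 ± 489 CPM (SD, n = 3) in IL-4Rα+/+ and 2294 ± 231 CPM (SD, n = 3) in IL-4Rα-/- monocytes, which is 22.5% lower in the fit (log2 fold change -0.37, SE 0.14, 95% interval -0.71 to -0.02). In edgeR's quasi-likelihood test its p-value was 0.040, and after Benjamini-Hochberg adjustment it was 0.618. *Cd74* is the only one of the 10 genes on chromosome 18.

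The ranges of the genotypes overlapped in all 4 genes, as in the other 6, so that 0 of the 10 genes were free of overlap against 15.5% of all genes tested. This count turned on single mice. Without IL-4Rα+/+ replicate 3 there were 5 genes without overlap, namely these 4 and *H2-Oa*, against 36.9% of all genes tested with those 5 libraries. Without IL-4Rα-/- replicate 1 there were 4, the same A, E and *Cd74* genes, against 22.3% of all genes. With the 4 male libraries alone there was 1 gene without overlap, *Ciita*, against 36.6% of all genes, and with the trend of counts with transcript length removed there were 2, *H2-Ab1* and *Cd74*, against 13% of all genes. In none of these cases was any of the 10 genes called.

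The summed level of these 4 genes was 6681, 6894 and 4941 CPM in IL-4Rα+/+ and 5347, 4329 and 4790 CPM in IL-4Rα-/- replicates 1, 2 and 3. Monocyte subsets differ in their genes, and *Ace*, *Treml4* and *Nr4a1* mark those with little Ly6C on the surface while *Ccr2*, *Ly6c2* and *Fn1* mark those with much. The first 3 genes summed to 4775, 3748 and 2167 CPM in IL-4Rα+/+ and 3203, 1506 and 3062 CPM in IL-4Rα-/- libraries. The other 3 ran from 1596 CPM in IL-4Rα+/+ replicate 1 to 6269 CPM in IL-4Rα+/+ replicate 3 and 6020 CPM in IL-4Rα-/- replicate 2. IL-4Rα+/+ replicate 3 and IL-4Rα-/- replicate 2, low in the A, E and *Cd74* genes within their genotypes, were thus also the lowest of their genotypes in the first subset's genes and the highest in those of the second. With the difference between these subset genes as a covariate, chosen after seeing the data, the log2 fold change was -0.23 for *H2-Aa*, -0.24 for *H2-Ab1*, -0.22 for *H2-Eb1* and -0.24 for *Cd74*. All 4 stayed below 0 and were smaller in size than without the covariate. Because the covariate came from genes already seen to move with these 4, the smaller sizes are a description only. For *Cd74* the SE was smaller as well, at 0.074, and the 95% interval ran from -0.42 to -0.06, with a p-value of 0.016 in edgeR's quasi-likelihood test and 0.406 after Benjamini-Hochberg adjustment. In that fit 1518 of the 13849 genes tested had p-values under 0.05 before adjustment. The part of the monocyte subsets in the class II levels was not tested. In the 4 male libraries alone the log2 fold changes of these 4 genes, in the same order, were -0.31, -0.28, -0.28 and -0.30.

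**Figure D2:**
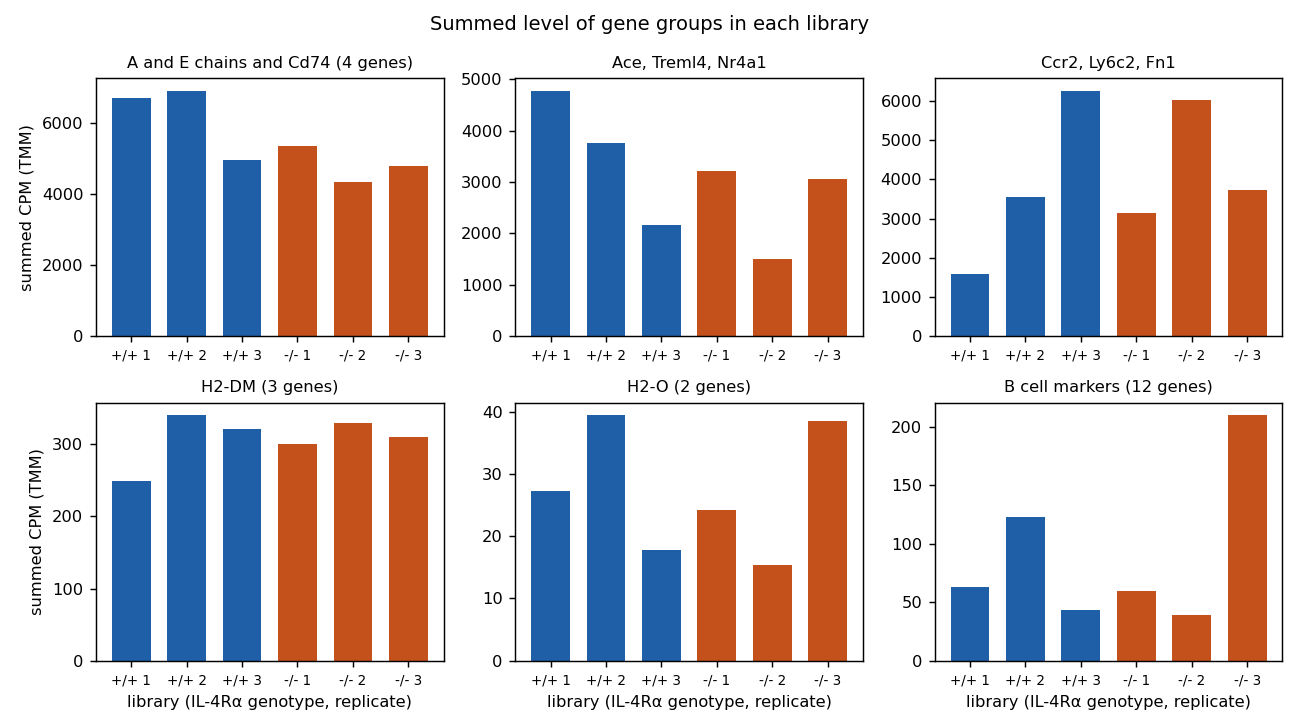
Summed level of 6 groups of genes (vertical axes, TMM-scaled CPM, each starting at 0) in each library, with IL-4Rα+/+ in blue and IL-4Rα-/- in orange and 1 bar per mouse. The A, E and *Cd74* bars are lowest where the *Ace*, *Treml4* and *Nr4a1* bar of a genotype is lowest, and the H2-O and B cell marker bars share their highest 2 libraries, IL-4Rα+/+ replicate 2 and IL-4Rα-/- replicate 3.

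*Ciita*, on chromosome 16 from 10480059 to 10528418 of GRCm38, encodes the co-activator of the set. It stood at 94.5, 133 and 115 CPM in IL-4Rα+/+ and 91.4, 101 and 71.7 CPM in IL-4Rα-/- replicates 1, 2 and 3. The lowest IL-4Rα+/+ library lay between the IL-4Rα-/- libraries, with IL-4Rα-/- replicates 1 and 3 below it. The means were 114 ± 19.5 CPM (SD, n = 3) and 88.0 ± 14.9 CPM (SD, n = 3), and the log2 fold change was -0.38 (SE 0.17, 95% interval -0.78 to 0.03). *Ciita* did not follow the A and E chains in each mouse, since its lowest library was IL-4Rα-/- replicate 3 and theirs was IL-4Rα-/- replicate 2. Its log2 fold change was -0.25 without IL-4Rα+/+ replicate 2 and also -0.25 without IL-4Rα-/- replicate 3. Without both, the 2 libraries richest in B cell marker reads, it was -0.13, and with the monocyte subset covariate it was -0.47. Its exons share 329 bases with *Dexi* on the other strand. Reads had been assigned by strand, since 69 of 97 antisense genes that lie wholly inside exons of strongly expressed genes had reads of their own.

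The promoters of these genes are known for a shared arrangement, in which RFX binds an X box and NF-Y binds a Y box a short way before the start of transcription, and CIITA docks on both. *Cd74* and *Ciita* lie elsewhere, and the other 8 genes lie together in the class II region of chromosome 17, from 34092340 at the start of *H2-Oa* to 34316674 at the end of *H2-Eb1* in GRCm38, with *H2-Aa* alone on the minus strand. RefSeq promoters (build GRCm38.p6, 250 bases before to 50 after the start) were matched by symbol for 7 of the 10 genes, and *H2-Ab1*, *Cd74* and *Ciita* were not matched. The stretches below are shown because they put the promoters of the A and E chains beside those of H2-O and H2-DM genes. Capitals mark the letters GNAAC, taken from the X box, and TGATTGG, the Y box as read on the gene's strand. In *H2-Aa* the stretch lies at chr17:34287867-34287912 on the minus strand, and the others lie on the plus strand, *H2-Eb1* at chr17:34305768-34305812, *H2-Ob* at chr17:34238810-34238852, *H2-Oa* at chr17:34092295-34092340 and *H2-DMb2* at chr17:34145119-34145163.
H2-Aa: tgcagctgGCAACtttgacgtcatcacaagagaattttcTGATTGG
H2-Eb1: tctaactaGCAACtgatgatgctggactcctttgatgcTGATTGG
H2-Ob: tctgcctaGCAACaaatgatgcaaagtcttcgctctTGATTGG
H2-Oa: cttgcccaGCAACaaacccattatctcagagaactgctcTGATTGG
H2-DMb2: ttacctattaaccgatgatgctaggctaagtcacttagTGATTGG

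These letters were chosen after the sequences were seen, and a match is a description, not a site. TGATTGG was searched on both strands and stood in the promoters of 6 of the 7 genes, against 9% of the 27025 genes in the table. GNAAC, starting 20 to 40 bases before TGATTGG on the same strand so that they cannot overlap, stood in 5 of the 7 genes, against 0.651% of genes. GNAAC alone stood in a promoter of 86.8% of genes and tells little by itself. From the start of GNAAC to that of TGATTGG there were 31 bases in *H2-Aa*, *H2-Oa* and *H2-DMb1*, 30 in *H2-Eb1* and 28 in *H2-Ob*. In *H2-DMb2* TGATTGG was found without a GNAAC at 20 to 40 bases before it. The starts listed for *H2-DMa* had neither the pair nor TGATTGG. The pair was therefore shared by *H2-Aa*, *H2-Eb1* and *H2-Oa*, with log2 fold changes of -0.36, -0.37 and -0.36, and by *H2-DMb1* and *H2-Ob*, with log2 fold changes of -0.03 and 0.02.

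H2-DM, the exchange factor, is built from an α chain, *H2-DMa*, and a β chain from either of a pair of neighbouring copies, *H2-DMb1* and *H2-DMb2*. *H2-DMa* stood at 139, 187 and 193 CPM in IL-4Rα+/+ and 174, 196 and 189 CPM in IL-4Rα-/- replicates 1, 2 and 3. Its order was nearly the reverse of that of the A and E chains, with its highest level in IL-4Rα-/- replicate 2 and its lowest in IL-4Rα+/+ replicate 1. The log2 fold change was 0.11 (SE 0.14, 95% interval -0.22 to 0.43), and without IL-4Rα+/+ replicate 1 it was -0.028. *H2-DMb1* stood at 91.0, 128 and 111 CPM in IL-4Rα+/+ and 107, 121 and 96.0 CPM in IL-4Rα-/- replicates 1, 2 and 3. The IL-4Rα-/- values lay inside the IL-4Rα+/+ range, and the log2 fold change was -0.03 (SE 0.15, 95% interval -0.38 to 0.33).

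*H2-DMb2* was far lower, at 18.6, 24.9 and 17.7 CPM in IL-4Rα+/+ and 19.9, 12.6 and 24.7 CPM in IL-4Rα-/- replicates 1, 2 and 3. It was highest in IL-4Rα+/+ replicate 2 and IL-4Rα-/- replicate 3 and lowest in IL-4Rα-/- replicate 2. The log2 fold change was -0.10 (SE 0.26, 95% interval -0.72 to 0.52). Only reads that mapped to 1 place were counted, so reads that fit both β chain copies equally well are missing and the split between these copies is uncertain. *H2-DMa* shares 360 exon bases with *Brd2* on the other strand, which encodes a chromatin reader and stood at 377 to 442 CPM over the 6 libraries. The 3 H2-DM genes summed to 249, 340 and 322 CPM in IL-4Rα+/+ and 301, 330 and 310 CPM in IL-4Rα-/- libraries, and the IL-4Rα-/- values lay wholly inside the IL-4Rα+/+ range.

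H2-O, which holds H2-DM back, pairs *H2-Oa* with *H2-Ob*, and both were among the least abundant of the 10. *H2-Oa* stood at 11.0, 14.1 and 6.94 CPM in IL-4Rα+/+ and 10.1, 6.23 and 8.65 CPM in IL-4Rα-/- replicates 1, 2 and 3. These levels rest on 178 to 391 reads, and IL-4Rα+/+ replicate 3 was again the lowest of its genotype. The log2 fold change was -0.36 (SE 0.30, 95% interval -1.07 to 0.36), and it was -0.10 without IL-4Rα+/+ replicate 2, -0.19 without IL-4Rα-/- replicate 2 and -0.59 without IL-4Rα+/+ replicate 3. *H2-Ob* stood at 16.3, 25.3 and 10.8 CPM in IL-4Rα+/+ and 14.1, 9.13 and 29.8 CPM in IL-4Rα-/- replicates 1, 2 and 3. Its highest level was 3.27 times its lowest, the widest spread of the 10 genes, and both extremes came from IL-4Rα-/- mice. The log2 fold change was 0.02 (SE 0.48, 95% interval -1.13 to 1.17), and it was -0.58 without IL-4Rα-/- replicate 3.

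The 12 B cell markers summed to 63.2, 123 and 43.2 CPM in IL-4Rα+/+ and 59.7, 38.7 and 210 CPM in IL-4Rα-/- replicates 1, 2 and 3, and none of them was at 0 in all libraries. *Ms4a1*, which encodes CD20, ranged from 1.01 CPM in IL-4Rα-/- replicate 2 to 21.3 CPM in IL-4Rα-/- replicate 3. IL-4Rα+/+ replicate 2 and IL-4Rα-/- replicate 3, the libraries richest in B cell reads, were also the highest in *H2-Ob* and *H2-DMb2*. Without these 2 libraries the log2 fold change of *H2-Ob* was -0.23 and that of *H2-DMb2* was -0.17, and the 4 A, E and *Cd74* genes ranged from -0.33 to -0.17. The part of B cells in the levels of the H2-O and H2-DM genes was not tested.

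Between genes, levels were compared per kilobase of the longest coding transcript in the annotation, over all 6 libraries. *Cd74* led with 1863 ± 355 CPM per kilobase (SD, n = 6), ahead of *H2-Aa* at 894 ± 180, *H2-Ab1* at 811 ± 141 and *H2-Eb1* at 526 ± 115. A wide step followed to *H2-DMa* at 108 ± 12.8 and *H2-DMb1* at 77.6 ± 10.2 CPM per kilobase. *Ciita* came next at 16.8 ± 3.52, then *H2-DMb2* at 13.9 ± 3.27, *H2-Oa* at 8.73 ± 2.66 and *H2-Ob* at 6.58 ± 3.09 CPM per kilobase. The ranges of the neighbours *H2-Aa* and *H2-Ab1*, *H2-DMa* and *H2-DMb1*, *Ciita* and *H2-DMb2*, *H2-DMb2* and *H2-Oa*, and *H2-Oa* and *H2-Ob* overlapped, and those of the other neighbours did not. With the length of all annotated exons in place of 1 transcript, *Cd74* stayed first and *H2-Ob* last. *H2-Eb1* then moved to rank 2 and *H2-Aa* to rank 4. *H2-DMb1* moved to rank 5, ahead of *H2-DMa*, and *H2-DMb2* to rank 7, ahead of *Ciita*.

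**Figure D3:**
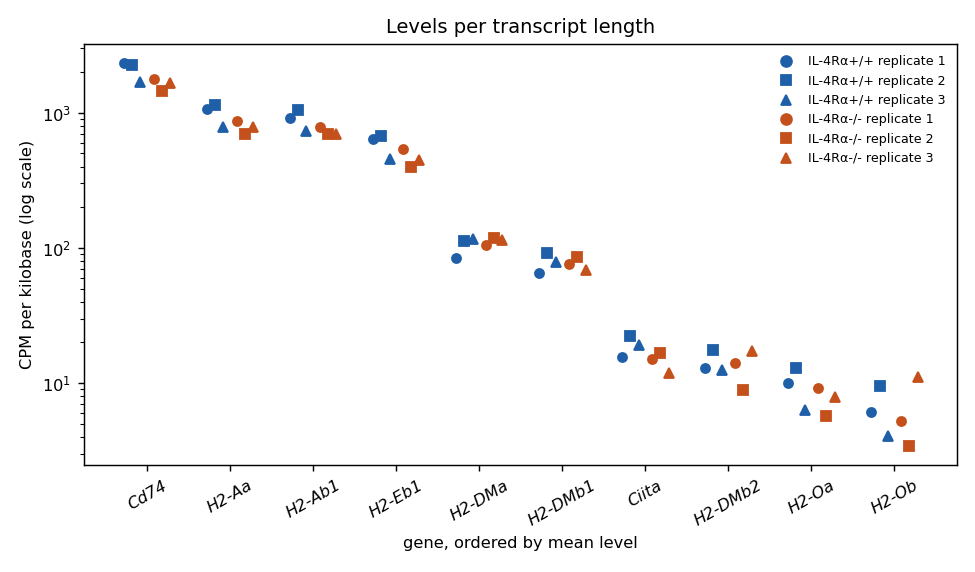
Level per kilobase of transcript of the 10 genes (vertical axis, CPM per kilobase, log scale) in each library, with IL-4Rα+/+ in blue and IL-4Rα-/- in orange and replicates 1, 2 and 3 as circle, square and triangle. Genes run from the highest mean, *Cd74* at 1863, to the lowest, *H2-Ob* at 6.58, and the points of IL-4Rα+/+ and IL-4Rα-/- mice mix in each gene.

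Ratios of counts within a library do not depend on scaling and were compared for 5 pairs of genes by an exact permutation test, two-sided, with all 20 labelings of the mice, which cannot give a p-value below 0.1. The ratio of *H2-Ab1* to *H2-Aa*, the chains of 1 molecule, was 0.916, 0.975 and 1.01 in IL-4Rα+/+ and 0.963, 1.07 and 0.949 in IL-4Rα-/- replicates 1, 2 and 3. It was nearly even in every mouse, and the mean log2 ratio differed by 0.04 (exact permutation test, p = 0.7). The ratio of *Cd74* to *H2-Ab1* ranged from 2.53 to 2.96 in IL-4Rα+/+ and from 2.44 to 2.77 in IL-4Rα-/- libraries, with a difference in mean log2 of -0.06 (exact permutation test, p = 0.5). These ratios varied little although the levels of each gene differed by 1.5 times or more between mice.

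The ratio of the β chains, *H2-DMb2* to *H2-DMb1*, varied far more, with 0.204, 0.194 and 0.160 in IL-4Rα+/+ and 0.186, 0.104 and 0.258 in IL-4Rα-/- replicates 1, 2 and 3. Both extremes belonged to IL-4Rα-/- mice, and the means were close (difference in log2 -0.12, exact permutation test, p = 0.8). *H2-Oa* stood to *H2-DMa* at 0.0787, 0.0757 and 0.0359 in IL-4Rα+/+ and at 0.0580, 0.0318 and 0.0457 in IL-4Rα-/- libraries, with a difference in mean log2 of -0.45 (exact permutation test, p = 0.3). This difference was -0.22 without IL-4Rα-/- replicate 2 and -0.82 without IL-4Rα+/+ replicate 3. *H2-Ob* stood to *H2-DMb1* at 0.0753 in IL-4Rα-/- replicate 2 and at 0.311 in IL-4Rα-/- replicate 3, which held all IL-4Rα+/+ values between them (difference in mean log2 -0.05, exact permutation test, p = 1). All 5 p-values were 1 after Benjamini-Hochberg adjustment.

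**Figure D4:**
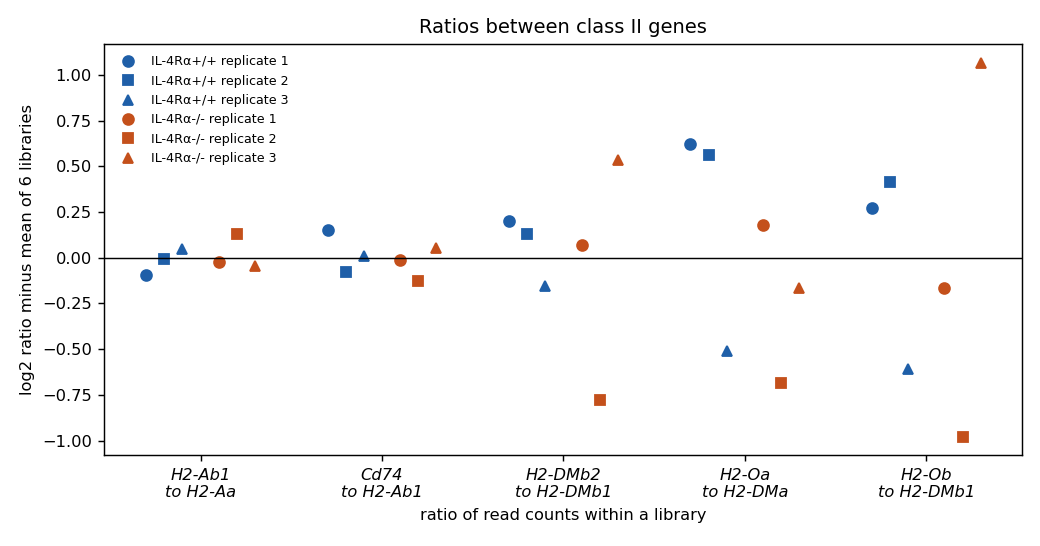
Ratio of read counts between class II genes (vertical axis, log2 of the ratio minus its mean over the 6 libraries) for 5 pairs of genes, with IL-4Rα+/+ in blue and IL-4Rα-/- in orange and replicates 1, 2 and 3 as circle, square and triangle. The chain pair *H2-Ab1* to *H2-Aa* (0.916 to 1.07) and *Cd74* to *H2-Ab1* (2.44 to 2.96) lie close to 0, and *H2-Ob* to *H2-DMb1* (0.0753 to 0.311) spreads widest.

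A list of 36 other genes of the pathway was followed in the same fit, and 34 of them were tested. None was called by edgeR's quasi-likelihood test (0 genes) or by DESeq2 (0 genes), 22 were lower and 12 higher in IL-4Rα-/- monocytes, and the median log2 fold change was -0.07. Before adjustment 1 higher and 1 lower gene had p-values under 0.05. Of the 13 transcription factors of the class II promoters and of *Ciita*, 10 were lower, and 3 of these did not overlap between the genotypes, where 7.87% of all genes tested were lower without overlap. Over the whole list these were 3 of 34 genes, a share near that background. *Irf1*, an interferon-induced factor that acts on *Ciita*, stood at 292, 269 and 268 CPM in IL-4Rα+/+ and 250, 245 and 238 CPM in IL-4Rα-/- replicates 1, 2 and 3 (log2 fold change -0.18, SE 0.07). *Creb1*, which binds beside the X box, stood at 137 to 148 CPM in IL-4Rα+/+ and 124 to 133 CPM in IL-4Rα-/- libraries (log2 fold change -0.14, SE 0.07). *Stat6*, the factor that carries the IL-4 signal to the nucleus, stood at 472 to 513 CPM against 448 to 468 CPM (log2 fold change -0.09, SE 0.07). In each of these 3 genes the IL-4Rα-/- libraries lay just below the IL-4Rα+/+ libraries, by less than in the A and E chains but with less spread between mice.

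The enzymes of the endosome, which cut antigen and the invariant chain, went the other way in number, with 7 of 8 higher and 0 called. The most abundant genes of the whole list were *Ctsb*, *Ctss* and *Ifi30*. *Ctss*, the cathepsin that trims the invariant chain, stood at 2265 to 2532 CPM in IL-4Rα+/+ and 2233 to 2703 CPM in IL-4Rα-/- libraries (log2 fold change 0.03, SE 0.10). *Ctsb*, a general cathepsin, stood at 2558 to 3788 CPM and 2893 to 3864 CPM, and *Ifi30*, the reductase that opens disulfide bonds of antigens, at 542 to 799 CPM and 552 to 1030 CPM. The genotypes overlapped in all 3. Of the 6 tested genes of class II turnover and surface partners, 2 were higher and 4 lower. One of them was free of overlap, *March8*, a ligase that marks surface proteins for breakdown, at 28.3, 27.5 and 32.0 CPM in IL-4Rα+/+ and 40.6, 35.0 and 35.1 CPM in IL-4Rα-/- replicates 1, 2 and 3. Its log2 fold change was 0.33 (SE 0.10, 95% interval 0.10 to 0.57), and 7.63% of all genes tested were higher without overlap. The other genes of the class II region were lower in 7 of 7 tested, with 0 called and 0 free of overlap, and their median log2 fold change was -0.12.

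**Figure D5:**
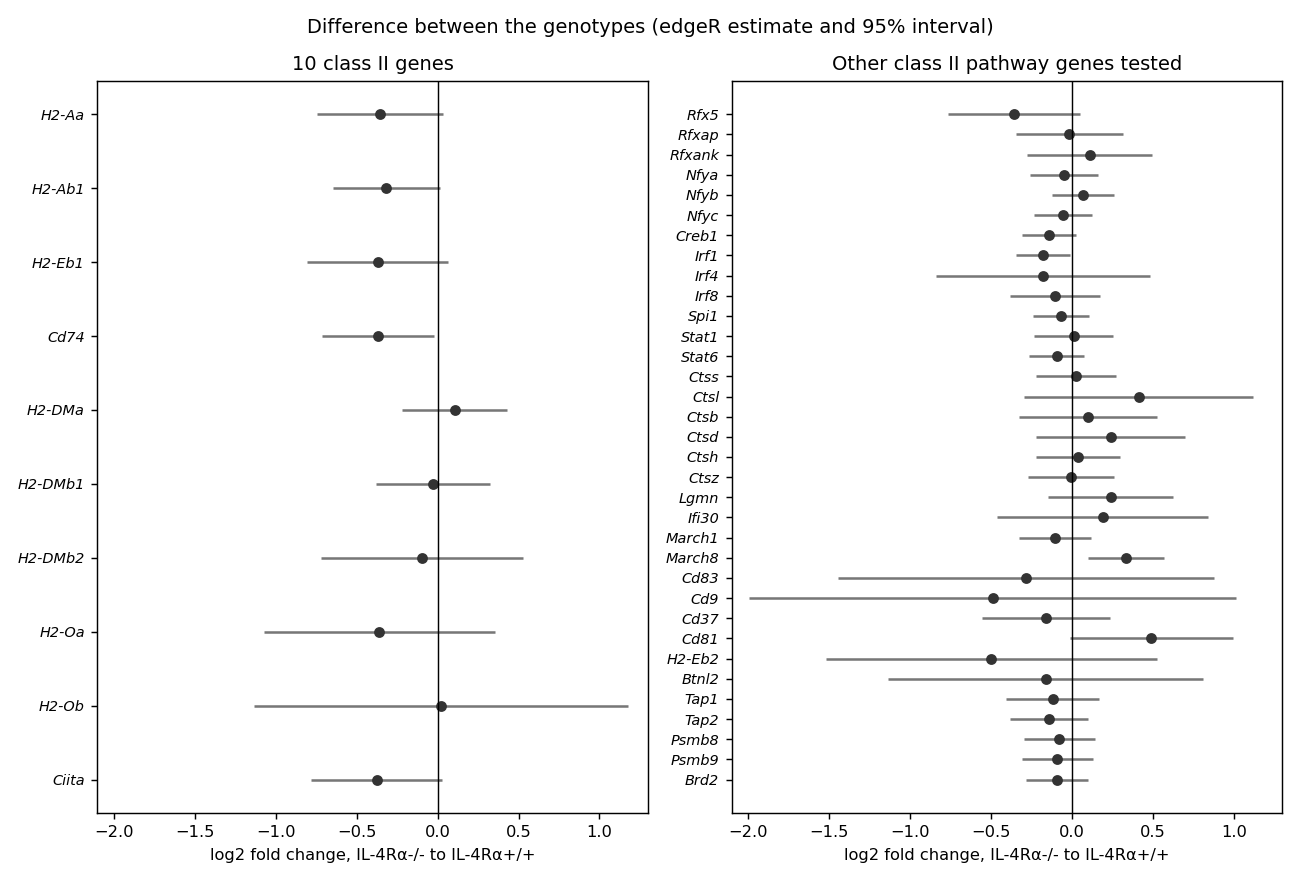
Log2 fold change of IL-4Rα-/- to IL-4Rα+/+ monocytes (horizontal axis) with its 95% interval from the edgeR fit, for the 10 class II genes (left) and the 34 other pathway genes tested (right). The interval of *Cd74* ends just below 0 (-0.71 to -0.02), those of *H2-Aa*, *H2-Ab1*, *H2-Eb1* and *Ciita* cross 0 narrowly, and *Irf1* and *March8* are the pathway genes whose intervals exclude 0.

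Other antigen-presenting cells and passengers were read from marker lists. The 11 markers of conventional dendritic cells, which carry much class II, summed to 312 to 444 CPM in IL-4Rα+/+ and 303 to 385 CPM in IL-4Rα-/- libraries, with 8 of 11 lower. *Flt3*, a growth factor receptor of these cells, was at 65.3 to 94.9 CPM and 72.3 to 78.4 CPM, and *Zbtb46*, which marks this lineage, was at 8.37 to 18.2 CPM and 6.89 to 13.0 CPM, with overlap in both. The dendritic cell sum was lowest within each genotype in IL-4Rα+/+ replicate 3 and IL-4Rα-/- replicate 2, where the A, E and *Cd74* sum was lowest too, and 5 of the 11 markers had this order while *Flt3* was among those that did not. The 9 markers of red pulp macrophages, which clear red cells, did not overlap, at 3111 to 3713 CPM in IL-4Rα+/+ and 4233 to 6701 CPM in IL-4Rα-/- libraries, and all 9 were higher. The 9 erythroid markers did not overlap either, at 60.9 to 131 CPM against 176 to 423 CPM, and all 9 were higher. Before adjustment 8 erythroid and 7 red pulp macrophage markers had p-values under 0.05 in edgeR's quasi-likelihood test. Over all genes tested 8.09% had such p-values in either direction. DESeq2 called 3 of the erythroid and 0 of the red pulp macrophage markers. Plasmacytoid dendritic cell markers (199 to 227 CPM against 207 to 252 CPM), plasma cell markers (491 to 542 CPM against 470 to 764 CPM) and T and NK cell markers (44.4 to 113 CPM against 40.8 to 107 CPM) overlapped between the genotypes. Neutrophil markers overlapped in their sum as well, at 51.3 to 226 CPM against 97.9 to 559 CPM, but 5 of the 7 tested were higher with p-values under 0.05 before adjustment, with a median log2 fold change of 1.93, and DESeq2 called 1. Their sum was highest within each genotype in IL-4Rα+/+ replicate 3 and IL-4Rα-/- replicate 2, the libraries lowest in the A, E and *Cd74* genes. The 12 monocyte markers summed to 19664 to 28152 CPM and 22611 to 28041 CPM. The part of these cells in the class II levels was not tested.

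The genes whose profile over the 6 libraries was most like the mean profile of the 10, as log2 CPM centred on each gene's mean, were sought among 8514 genes with a mean of at least 10 CPM. The 10 genes' mean profile was highest in IL-4Rα+/+ replicate 2 and lowest in IL-4Rα-/- replicate 2. The closest were *AW549877* (Pearson r = 0.997), *Sqle*, which encodes squalene epoxidase of cholesterol synthesis (0.987), *Ctdspl2* (0.986), *Gcc2*, a protein of the Golgi apparatus (0.983) and *Zc3h12c* (0.983). These correlations describe 6 libraries and were the highest of very many. Cell marker sums differed between the libraries, and the part of cell composition in these profiles was not tested. *Sqle*, for example, ran from 9.41 CPM in IL-4Rα-/- replicate 2 to 22.4 CPM in IL-4Rα+/+ replicate 2.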

How the data were processed

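Splenic monocytes were enriched by negative selection, and 6 directional poly(A) libraries were sequenced as single-end reads. The authors aligned reads to GRCm38 with STAR 2.6.1a and deposited STAR's counts of uniquely mapped reads per gene of Gencode mV23, not normalized. STAR's summary lines, which hold the 21.1 to 22.8% of reads of each library that were not assigned to a gene, were left out. Symbols, positions and lengths came from Gencode M21, which held 55154 of the 55421 identifiers, and promoters from RefSeq (GRCm38.p6).

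Libraries were grouped by genotype from the labels. Genes were kept by filterByExpr (minimum count 10), which left 13849, scaled by TMM and fitted in edgeR 4.0.16 (R 4.3.3), whose quasi-likelihood p-values were adjusted by Benjamini-Hochberg over all genes tested at the threshold of 0.15 that the study's methods give. DESeq2 1.42.0 was an alternative. Intervals are at 95%. The main edgeR fit and the DESeq2 fit were tested on simulated data, and the other steps were not. The 10 genes, the pathway list and the marker lists (monocytes, B cells, plasma cells, conventional and plasmacytoid dendritic cells, T and NK cells, neutrophils, red pulp macrophages, erythroid cells) were chosen with earlier results of these data known. The text names the 10 genes, *Il4ra*, pathway genes that were called, did not overlap or were the 3 most abundant, the 5 genes of the most similar profile, and the first genes of marker lists. One gene that this rule names is not reported here. *H2-Ea-ps*, *Brd2*, *Xist*, *Ddx3y* and the subset markers are named besides, and the subset markers were chosen after their values were seen.

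The alternatives changed the test, scaling, filter, threshold and covariates, removed the trend of counts with transcript length (loess, span 0.5), added the replicate number as a block and left out each mouse. Leaving out the 2 libraries richest in B cell reads, using male mice alone, and the sex and monocyte subset covariates were chosen after seeing the data.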

Additional observations from a re-analysis of the deposited data

How the results depend on the processing

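No alternative called any of the 10 genes, and *H2-Aa*, *H2-Ab1*, *H2-Eb1*, *Cd74*, *H2-Oa* and *Ciita* were lower in IL-4Rα-/- monocytes under 17 of 17 alternatives. Their sizes moved, and leaving out single mice gave log2 fold changes from -0.44 to -0.19 for *H2-Ab1*, from -0.50 to -0.25 for *H2-Aa*, from -0.52 to -0.26 for *H2-Eb1*, from -0.50 to -0.29 for *Cd74*, from -0.59 to -0.10 for *H2-Oa* and from -0.50 to -0.25 for *Ciita*. DESeq2 called 81 genes in all, none of them among the 10, and no other alternative called a gene. The number of the 10 genes without overlap was 2 with the length trend removed, 1 with male mice alone and 0 to 5 when single mice were left out. The last 2 also had fewer libraries, and the cause of these changes was not tested. In the fit with a block for replicate number, 0 genes were called and 765 had an unadjusted p-value under 0.05. Same-numbered libraries did not consistently deviate together (correlations of 0.185, -0.271 and -0.296 over 13849 genes). The labels do not say whether the numbers mark pairs, and a pairing with little effect on expression would not show here. The block turned *H2-Ob* to -0.077.

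Small differences changed sign with single mice. Over the fits that left out a mouse, log2 fold changes ran from -0.028 to 0.20 for *H2-DMa*, from -0.15 to 0.099 for *H2-DMb1*, from -0.33 to 0.13 for *H2-DMb2* and from -0.58 to 0.39 for *H2-Ob*. The log2 ratios ran from -0.016 to 0.072 for *H2-Ab1* to *H2-Aa*, from -0.11 to 0.0070 for *Cd74* to *H2-Ab1*, from -0.41 to 0.24 for *H2-DMb2* to *H2-DMb1*, from -0.82 to -0.22 for *H2-Oa* to *H2-DMa* and from -0.60 to 0.43 for *H2-Ob* to *H2-DMb1*. Without the 2 libraries richest in B cell reads *H2-DMb1* was 0.17 and *H2-Ob* was -0.23. With male mice alone *H2-DMa* was -0.042 and *H2-Ob* was -0.64. *H2-Ob* was -0.22 with the B cell covariate and -0.13 with the sex covariate, and *H2-DMb2* was 0.00032 with the monocyte subset covariate. The cause was not tested.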
